A study of Homo sapiens with 9 samples.

Results

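The 59 genes described here lie along the long arm of chromosome 13, from MPHOSPH8 near the centromere to TFDP1 near the end of the arm, with RB1 among them. They were taken from the count table by their symbols, and they are 59 of the 1053 chromosome 13 genes and of the 42717 genes that the table lists. The genes were chosen by their symbols with their CPM and log2 fold changes between the lines in these same libraries already known, so every difference between lines over the 59 genes is given as a description, and no p is attached to it. RNA came from cells of 3 sublines of the human pancreatic ductal adenocarcinoma (PDAC) line SUIT-2, named S2-007, S2-020 and S2-028, with 3 libraries per line and 9 in all. All 3 lines were grown in DMEM with inactivated fetal bovine serum, and the labels name no further treatment or genetic change. They differ in maspin, the serine protease inhibitor whose location the study addressed: by the study's staining and blots, S2-007 holds it in nucleus and cytoplasm (panMaspin), S2-028 mostly in the cytoplasm (cytMaspin), and S2-020 holds little of it. Each condition is therefore 1 subline, and nothing in the labels says whether the 3 libraries of a line came from separate cultures, so the errors and p-values given measure the spread between libraries, which may be technical.

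The total count lay between 60328748 and 86253923 reads per library. Of the 59 genes, 57 had at least 100 counts in every library and none was at or under 3 counts in any, so counting error was small for nearly all of them. Levels are given in CPM (counts scaled to a common library size with TMM factors), and differences as log2 fold changes fitted with edgeR. A gene is said to be called when its Benjamini-Hochberg adjusted p over all genes tested was under 0.05 and its fold change at least about 1.5 in either direction, the thresholds that the study used for S2-028 against S2-007. Of 6 epithelial markers (KRT7, KRT8, KRT18, KRT19, EPCAM and CDH1), all were present in every library, with a summed level between 9539 and 10073 CPM in S2-007, between 4308 and 5426 CPM in S2-020 and between 15156 and 17763 CPM in S2-028. KRT8 and KRT18 made up most of the sum in S2-020. Against S2-007, 5 of the 6 were called lower in S2-020 (beside 12.1% of all genes), with a median log2 fold change of -2.27. In S2-028, 4 were called higher than in S2-007 (beside 10.2%) and none lower. Of 16 markers of immune, stromal, endothelial, acinar and islet cells, 13 had a mean under 1 CPM in each line, and CD68, COL1A1 and PECAM1 lay above it. Their summed level was between 49.6 and 54.1 CPM in S2-007, between 19.4 and 21.95 in S2-020 and between 22.2 and 24.9 in S2-028. The part of either marker list in the results for chromosome 13 was not tested. Since RNA was measured in bulk, fewer cells that express a gene and less RNA per cell cannot be told apart.

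RB1 encodes the retinoblastoma protein, which holds E2F transcription factors inactive until cyclin-dependent kinases phosphorylate it at the entry into S phase. TFDP1, near the end of the arm, encodes DP1, the partner that E2F proteins need to bind DNA. The same arm carries BRCA2, which serves the repair of broken DNA, LATS2, a kinase of the Hippo pathway that restrains YAP, CDK8, a kinase of the Mediator complex, and FOXO1, a transcription factor held out of the nucleus by Akt. Many of the other genes serve basic functions of the cell, among them POMP in proteasome assembly, SAP18 in histone deacetylase complexes, IPO5 in nuclear import and EXOSC8 in the RNA exosome.

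To show what kinds of start sites share the arm, the 250 bases before the start of 4 of the genes are printed 5′ to 3′ on the strand of the gene, from RefSeq on GRCh38.p14 for 3 of them and from the GRCh38 genome for RB1. RB1 and TFDP1 stand for the genes that differed between lines with the rest of the arm, TNFRSF19 for the gene with the greatest difference, and GJB2 for a gene that went the other way in S2-020. The sequences are in lower case, with exact matches on either strand to an E2F site (TTTGGCGC, TTTCGCGC or TTTCCCGC) or to a GC box (GGGCGG) in capitals.
RB1 (chr13:48303501-48303750, plus strand): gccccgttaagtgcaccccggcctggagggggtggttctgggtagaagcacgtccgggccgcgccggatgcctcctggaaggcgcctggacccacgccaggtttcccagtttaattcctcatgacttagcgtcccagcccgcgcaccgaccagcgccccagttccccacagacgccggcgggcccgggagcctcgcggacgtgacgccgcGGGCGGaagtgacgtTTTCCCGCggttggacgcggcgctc
TFDP1 (chr13:113584503-113584752, plus strand): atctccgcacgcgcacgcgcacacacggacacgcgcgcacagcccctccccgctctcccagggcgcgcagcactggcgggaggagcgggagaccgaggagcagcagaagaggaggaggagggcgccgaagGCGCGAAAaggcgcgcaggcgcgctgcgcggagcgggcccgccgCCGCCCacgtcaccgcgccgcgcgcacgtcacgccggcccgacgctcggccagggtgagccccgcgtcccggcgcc
TNFRSF19 (chr13:23570162-23570411, plus strand): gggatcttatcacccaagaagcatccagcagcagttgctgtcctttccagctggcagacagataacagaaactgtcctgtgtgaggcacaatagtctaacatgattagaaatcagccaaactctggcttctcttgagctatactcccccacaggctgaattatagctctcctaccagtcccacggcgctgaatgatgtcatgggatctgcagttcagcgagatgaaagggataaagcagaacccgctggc
GJB2 (chr13:20192939-20193188, minus strand): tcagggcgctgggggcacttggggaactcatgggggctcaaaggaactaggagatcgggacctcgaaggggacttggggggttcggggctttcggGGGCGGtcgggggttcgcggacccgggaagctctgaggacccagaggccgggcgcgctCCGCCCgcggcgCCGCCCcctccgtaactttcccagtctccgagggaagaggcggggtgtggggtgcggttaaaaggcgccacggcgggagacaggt
The windows of RB1 and TFDP1 each held 1 match to the E2F letters and 1 GC box. The window of GJB2 held 3 GC boxes, and that of TNFRSF19 held neither motif. TNFRSF19 had 4 CpG dinucleotides in its window, against 31 for RB1, 45 for TFDP1 and 25 for GJB2. RefSeq promoter windows were found for 54 of the 59 genes, with a median of 22 CpG dinucleotides against 11 over all 35116 windows. An E2F match lay in 2 of the 54, those of TFDP1 and IRS2 (3.70%), and in 2.32% of all windows, and a GC box in 32 (59.3%) and in 42.6%. The RB1 window was read before the RefSeq start of the gene, because the RefSeq promoter table gives RB1 an internal start, and among the 54 windows RB1 is counted with that internal one. Of the 54 windows, 40 ended at the edge of the gene and 9 lay over 1000 bases from it, that of RB1 among them. Those windows enter the CpG median and the motif counts, which may differ at the outer starts. The window of TFDP1 ends at a start that lies just inside the outer edge of the gene. A match describes these letters only.

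In S2-028, most of the genes lay below their level in S2-007. The fitted log2 fold change was under 0 for 53 of the 59 genes, against 49.8% of all 26371 genes tested in this comparison. The median was -0.50, and the middle of the list, from the lower to the upper quartile, lay between -0.78 and -0.27, whereas the median of all genes was 0.00. Of the 59 genes, 25 were called lower (42.4%, beside 8.19% of all genes) and none higher by edgeR's quasi-likelihood test (beside 10.2%). The 59 genes code for proteins, and of all protein-coding genes tested 10.5% were called lower and 12.98% higher. DESeq2 called 26 of the genes lower and none higher, without a count of the share it called over all genes. Every S2-028 library was below every S2-007 library for 48 of the genes, as for 21.3% of all genes. Because these genes were chosen with the comparison in view, nothing is read from their excess over the background.

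**Figure D1:**
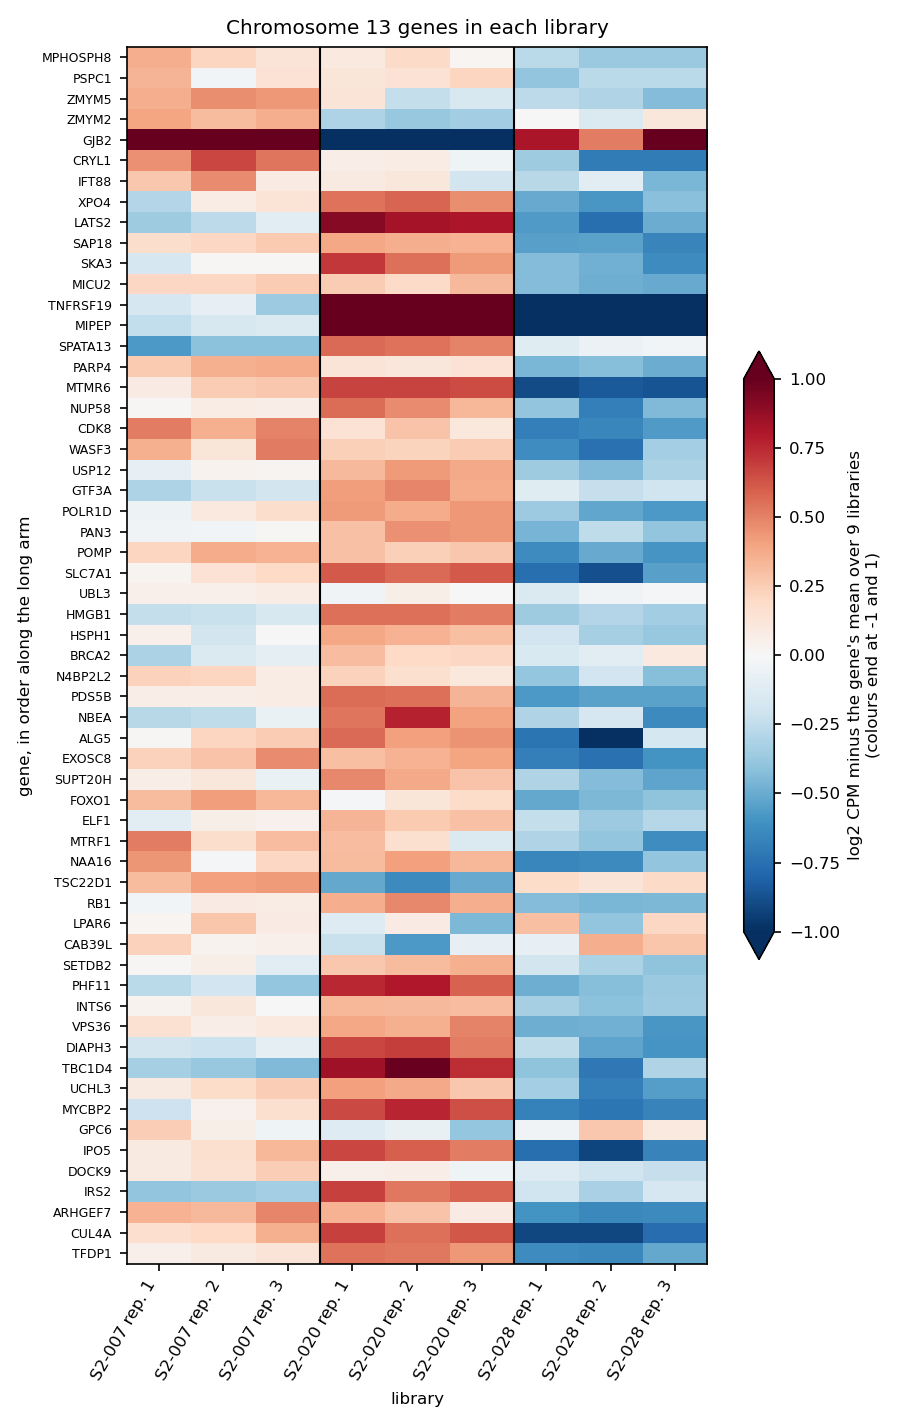
Log2 CPM of the 59 genes (rows, in order along the long arm) in the 9 libraries (columns), as the difference from the mean of the gene over all libraries. Colours run from -1 (blue) to 1 (red) on the log2 scale. The S2-028 columns are blue for most genes and the S2-020 columns red, while GJB2 and TSC22D1 show the reverse in S2-020.

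Against S2-020, the difference was greater. The median log2 fold change of S2-028 against S2-020 was -0.82, with quartiles of -1.03 and -0.55, beside a median of 0.02 over the 26031 genes tested. Of the 59 genes, 42 were called lower (71.2%, beside 10.1% of all genes) and 2, GJB2 and TSC22D1, were called higher (beside 12.1%). For 51 genes the S2-028 libraries were all below the S2-020 libraries, as for 24.7% of all genes. S2-028 was below all 6 other libraries for 44 of the 59 genes, a pattern seen in 11.3% of the 24986 genes tested in every comparison. The genes outside it were ZMYM2, GJB2, IFT88, SPATA13, GTF3A, UBL3, BRCA2, NBEA, TSC22D1, LPAR6, CAB39L, PHF11, TBC1D4, GPC6 and IRS2.

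S2-020 and S2-007 were closer to each other. The median log2 fold change of S2-020 against S2-007 was 0.29, beside -0.05 for all 26657 genes tested, with quartiles of -0.17 and 0.44. Of the 59 genes, 12 were called higher in S2-020 (20.3%, beside 9.57% of all genes) and 3, GJB2, TSC22D1 and ZMYM2, were called lower (5.08%, beside 12.1%). Of all protein-coding genes tested, 12.8% were called higher and 14.4% lower. The 3 comparisons share libraries, so they are not independent of each other. The line means stood in the order S2-020, S2-007, S2-028 for 35 of the 59 genes (beside 17.5% of all genes), and for 28 of these the libraries kept that order with no overlap (beside 4.57%). Of the 59 genes, 21 were called lower in S2-028 against both other lines (beside 3.37%). Summed over the 59 genes, the level was 4966 ± 111 CPM in S2-020, 3775 ± 126 in S2-007 and 2690.5 ± 60.3 in S2-028 (SD, n = 3 libraries per line).

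Among the genes of cell cycle and division, RB1 showed the order seen for most of the 59 genes. RB1 (NCBI gene 5925) was at 70.4, 75.9 and 75.5 CPM in S2-007, 92.5, 100.3 and 92.4 in S2-020, and 53.1, 52.2 and 52.6 in S2-028. All 3 S2-028 libraries were lowest and all 3 S2-020 libraries highest, with no overlap. The S2-028 level was 71.3% of that in S2-007, a log2 fold change of -0.49 ± 0.0624 (SE), short of the fold change needed for a call. Against S2-020 it was 55.4%, a log2 fold change of -0.85 ± 0.0590 (SE), which was called. TFDP1 (NCBI gene 7027) was at 161, 165 and 169.99 CPM in S2-007, 227, 224 and 209.99 in S2-020, and 101, 99.6 and 109 in S2-028. It kept the order of RB1 without overlap, and its log2 fold changes in S2-028 were -0.68 ± 0.0599 (SE) against S2-007 and -1.09 ± 0.0558 (SE) against S2-020, both called. The call against S2-007 was lost under a test against a 1.5-fold null (glmTreat). Per kilobase of exon, TFDP1 stood at 44.2 CPM in S2-007, 58.8 in S2-020 and 27.6 in S2-028, in S2-007 and S2-020 the highest of the 59 genes after HMGB1.

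LATS2 (NCBI gene 26524) was at 17.1, 18.2 and 20.2 CPM in S2-007, 41.2, 38.96 and 38.3 in S2-020, and 14.7, 12.9 and 15.5 in S2-028. S2-020 stood apart with 2.09 times the S2-007 level (log2 fold change 1.06 ± 0.0755 (SE)), while S2-028 was below S2-007 by less, at -0.36 ± 0.103 (SE). BRCA2 (NCBI gene 675) was the gene of this group with no lower level in S2-028 than in S2-007. Its values were 39.7, 44.6 and 46.3 CPM in S2-007, 61.3, 56.8 and 56.95 in S2-020, and 44.5, 45.8 and 52.8 in S2-028, so that S2-028 and S2-007 overlapped and S2-020 lay above both. The log2 fold change of S2-028 against S2-007 was 0.14 ± 0.0786 (SE), and no comparison of BRCA2 was called. SKA3 of the kinetochore, PDS5B of cohesin and DIAPH3, a formin, were between -0.61 and -0.29 in S2-028 against S2-007. Against S2-020 they were between -1.08 and -1.03, and all 3 were called lower (beside 10.1% of all genes). PDS5B was also called lower against S2-007, and DIAPH3 was called higher in S2-020 than in S2-007.

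The group of transcription and chromatin held 16 genes, of which 15 had a log2 fold change under 0 in S2-028 against S2-007 (49.8% of all genes tested) and 4 were called lower (beside 8.19%). CDK8 (NCBI gene 1024) was at 39.1, 34.99 and 38.7 CPM in S2-007, 30.3, 33.4 and 29.5 in S2-020, and 17.03, 17.4 and 18.5 in S2-028. S2-028 had 47.04% of the S2-007 level, a log2 fold change of -1.09 ± 0.0831 (SE), and S2-020 lay between the other lines. FOXO1 (NCBI gene 2308) showed the same order, at 29.6, 31.8 and 29.98 CPM in S2-007, 23.5, 25.8 and 26.97 in S2-020, and 16.7, 17.4 and 18.001 in S2-028, with log2 fold changes of -0.81 ± 0.0844 (SE) in S2-028 against S2-007, which was called, and -0.55 ± 0.0877 (SE) against S2-020, which was not. Without replicate 1 of S2-020 the latter became -0.61 and was called. Another gene covers 22.7% of the exon bases of FOXO1 on the same strand.

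HMGB1 (NCBI gene 3146), an abundant DNA-bending protein of chromatin, had the highest level per kilobase of exon of the 59 genes in each line, at 52.9 CPM in S2-007, 88.9 in S2-020 and 48.6 in S2-028. Without scaling by length it was at 398, 402 and 420.3 CPM in S2-007, 690.5, 691 and 671 in S2-020, and 368, 385 and 369.7 in S2-028. The S2-020 libraries were well above the rest, with a log2 fold change of 0.72 ± 0.0451 (SE) against S2-007, whereas S2-028 was just below S2-007 at -0.12 ± 0.0539 (SE). Of the exon sequence of HMGB1, 16.3% is also found in other genes, so its reads may have been split.

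TSC22D1 and ZMYM2 were lowest in S2-020. TSC22D1 (NCBI gene 8848), a leucine zipper protein induced by TGF-beta, was at 155, 165 and 168 CPM in S2-007, 87.3, 80.3 and 87.8 in S2-020, and 142, 136 and 143 in S2-028. Its S2-020 libraries lay below those of both other lines, at -0.97 ± 0.0551 (SE) against S2-007. ZMYM2 (NCBI gene 7750), a zinc finger protein of corepressor complexes, was at 64.3, 61.01 and 62.8 CPM in S2-007, 39.5, 37.6 and 38.4 in S2-020, and 49.02, 44.1 and 52.8 in S2-028, with a log2 fold change of -0.74 ± 0.0598 (SE) in S2-020 and of -0.36 ± 0.0730 (SE) in S2-028 against S2-007. In this group, GTF3A and PHF11 were called higher in S2-020 than in S2-007, with log2 fold changes of 0.63 ± 0.0590 (SE) and 0.97 ± 0.137 (SE). SAP18 at -0.79 ± 0.0631 (SE) and ZMYM5 at -0.75 ± 0.132 (SE) were called lower in S2-028 than in S2-007.

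**Figure D2:**
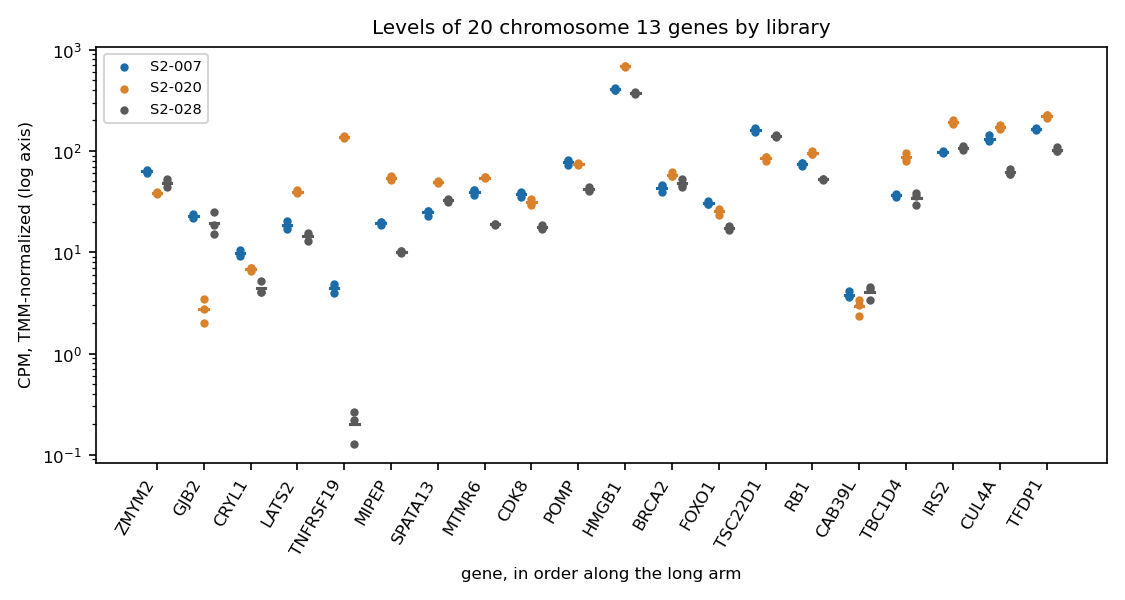
CPM of 20 of the genes (log axis) in each library (points) with the mean of each line (bars), in order along the arm. RB1, CUL4A and TFDP1 step down from S2-020 to S2-007 to S2-028 without overlap, TNFRSF19 spans from 137 CPM in S2-020 to 0.203 CPM in S2-028, and GJB2 is lowest in S2-020.

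Of the 11 genes of protein folding, modification and turnover, 8 were called lower in S2-028 than in S2-007 (72.7%, beside 8.19% of all genes). USP12, HSPH1 and UBL3 were not called, at -0.36, -0.26 and -0.12 on the log2 scale. Every S2-028 library lay below every S2-007 library for all 11 genes, as for 21.3% of all genes. POMP (NCBI gene 51371), the chaperone of proteasome assembly, was at 72.3, 80.5 and 79.3 CPM in S2-007, 76.3, 73.4 and 75.03 in S2-020, and 40.3, 44.05 and 41.5 in S2-028. S2-007 and S2-020 overlapped, and S2-028 had 54.3% of the S2-007 level (log2 fold change -0.88 ± 0.0662 (SE)). CUL4A (NCBI gene 8451), a cullin scaffold of ubiquitin ligases, was at 126, 128 and 142 CPM in S2-007, 179.6, 164 and 172 in S2-020, and 59.5, 59.5 and 65.6 in S2-028. Its log2 fold changes in S2-028 were -1.10 ± 0.0657 (SE) against S2-007 and -1.48 ± 0.0598 (SE) against S2-020, among the 4 lowest of the 59 genes in each comparison. The 9 other genes of the group ranged from -0.78 to -0.12 against S2-007 and from -1.38 for MYCBP2, a large ubiquitin ligase, to -0.07 for UBL3 against S2-020.

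For the 6 genes of RNA decay and nuclear transport, every S2-028 library lay below every S2-007 library (21.3% of all genes) and every S2-020 library (24.7%). Against S2-007 their log2 fold changes ran from -1.01 for EXOSC8 to -0.35 for PAN3, a subunit of a deadenylase, and EXOSC8 and IPO5 were called lower (2 of 6, beside 8.19% of all genes). Against S2-020, 5 of the 6 were called lower (beside 10.1%), and N4BP2L2 was not, at -0.50. Genes of the opposite strand cover 16.3% of the exon bases of EXOSC8. IPO5 had 355 ± 31.2 CPM in S2-007, 468 ± 25.6 in S2-020 and 181 ± 15.5 in S2-028 (SD, n = 3), so that S2-028 had 51.1% of the S2-007 level. Of the 4 genes of metabolism and mitochondria, all were called lower in S2-028 than in S2-007, beside 8.19% of all genes. CRYL1 (NCBI gene 51084), an enzyme of the uronate cycle, was at 9.14, 10.6 and 9.63 CPM in S2-007, 6.94, 7.01 and 6.47 in S2-020, and 5.19, 4.07 and 4.08 in S2-028, and its log2 fold change of -1.13 ± 0.146 (SE) was the lowest of the 59 genes after TNFRSF19. Against S2-020 the log2 fold change of -0.61 ± 0.150 (SE) was called, but leaving out replicate 2 or replicate 3 of S2-028 took it to -0.54 and ended the call. The call was also lost with library size only (-0.53) and under the 1.5-fold null. MIPEP (NCBI gene 4285), a peptidase that matures mitochondrial proteins, was at 18.6, 19.7 and 19.9 CPM in S2-007, 51.3, 54.9 and 56.4 in S2-020, and 9.92, 10.2 and 10.2 in S2-028. S2-020 had 2.74 times the S2-007 level and S2-028 52.3% of it.

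The widest range of log2 fold changes lay in the group of 15 membrane, signalling and cytoskeleton genes. TNFRSF19 (NCBI gene 55504), a receptor of the tumor necrosis factor family also known as TROY, was at 4.57, 4.86 and 3.99 CPM in S2-007, 136, 134 and 139.8 in S2-020, and 0.129, 0.219 and 0.262 in S2-028. The lines were far apart, and in S2-028 the gene rested on 8, 14 and 16 counts. S2-020 had 29.9 times the S2-007 level (log2 fold change 4.90 ± 0.0778 (SE)), and S2-028 had 4.59% of it (-4.45 ± 0.284 (SE)). MIPEP and SPATA13 are the next of the 59 genes along the arm after TNFRSF19, and both were called higher in S2-020 than in S2-007. SPATA13 (NCBI gene 221178), a guanine nucleotide exchange factor, was at 22.9, 25.7 and 25.6 CPM in S2-007, 50.5, 49.7 and 48.05 in S2-020, and 31.5, 32.8 and 33.5 in S2-028, above S2-007 in S2-028 as well, with a log2 fold change of 0.40 ± 0.0793 (SE) that was not called. Its log2 fold change against S2-020, -0.60 ± 0.0673 (SE), was called, and became -0.58 and lost its call without replicate 1 of S2-028. SPATA13 also lost that call with library size only (-0.52) and under the 1.5-fold null. Other genes cover 33.3% of the exon bases of SPATA13 on the same strand.

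GJB2 (NCBI gene 2706), the gap junction protein connexin 26, was at 22.98, 21.8 and 23.6 CPM in S2-007, 2.00, 2.76 and 3.43 in S2-020, and 18.6, 15.03 and 24.9 in S2-028. S2-007 and S2-028 overlapped, while S2-020 had 11.7% of the S2-007 level, a log2 fold change of -3.09 ± 0.141 (SE), and S2-028 was 7.14 times the S2-020 level. IRS2 (NCBI gene 8660), an adaptor of the insulin and IGF receptors, was at 96.4, 98.1 and 99.9 CPM in S2-007, 204, 182 and 189 in S2-020, and 109.98, 101 and 113 in S2-028. In S2-020 it was called higher than in S2-007, at 0.93 ± 0.0545 (SE), and S2-028 lay just above S2-007, at 0.14 ± 0.0621 (SE). TBC1D4 (NCBI gene 9882), a Rab GTPase-activating protein under Akt, was at 37.9, 36.7 and 35.1 CPM in S2-007, 85.8, 94.5 and 79.6 in S2-020, and 36.05, 29.01 and 38.8 in S2-028, with S2-020 higher at 1.21 ± 0.0676 (SE) and S2-007 and S2-028 overlapping. Without replicate 2 of S2-028 the sign of TBC1D4 in S2-028 against S2-007 turned from -0.08 to 0.03.

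MTMR6 (NCBI gene 9107), a phosphoinositide phosphatase, stood in the same order as RB1, at 36.4, 40.9 and 41.3 CPM in S2-007, 54.8, 54.9 and 53.9 in S2-020, and 18.4, 19.1 and 18.8 in S2-028 with log2 fold changes of -1.07 ± 0.0798 (SE) and -1.54 ± 0.0699 (SE) in S2-028 against S2-007 and S2-020. CAB39L (NCBI gene 81617), a scaffold of the LKB1 kinase, was low, at 4.15, 3.64 and 3.67 CPM in S2-007, 3.03, 2.37 and 3.35 in S2-020, and 3.35, 4.57 and 4.31 in S2-028, and was not called in any comparison. Its log2 fold change in S2-028 against S2-020, 0.49 ± 0.194 (SE), passed the threshold at 0.61 when replicate 1 of S2-028 was left out and at 0.59 when replicate 3 of S2-020 was. The 8 other genes of the group ranged from -1.01 for ARHGEF7 to 0.03 for GPC6 in S2-028 against S2-007. LPAR6, which lies within RB1, had means of 0.870 ± 0.0864 CPM in S2-007, 0.712 ± 0.135 in S2-020 and 0.832 ± 0.208 in S2-028 (SD, n = 3), and overlapped between all lines, so that no difference was detectable at this depth.

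The chromosome 13 genes outside the list were counted in the same fits. Of the 994 other listed genes, 448 were tested in S2-028 against S2-007, and 113 (25.2%) were called lower against 8.19% of all genes, whereas 17 were called higher (3.79%, beside 10.2%). Among the 226 that code for proteins, 93 were called lower (41.2%, beside 10.5% of all protein-coding genes tested) and 12 higher (5.31%, beside 12.98%), with a median log2 fold change of -0.53. Against S2-020, 163 of 446 were called lower in S2-028 (36.5%, beside 10.1%) and 24 higher (5.38%, beside 12.1%). Among the 227 that code for proteins, 133 were called lower (58.6%) and 12 higher (5.29%). Of all protein-coding genes tested in that comparison, 13.2% were called lower and 14.01% higher. In S2-020 against S2-007, 63 of 466 were called higher (13.5%, beside 9.57%) and 44 lower (9.44%, beside 12.1%). Among the 233 that code for proteins, 49 were called higher (21.03%) and 26 lower (11.2%). The shares of all protein-coding genes tested there were 12.8% and 14.4%.

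The median log2 fold change over the genes tested on each of 23 chromosomes, the 59 genes included, was compared. For S2-028 against S2-007 chromosome 13 was lowest, at -0.35 over 507 genes, followed by chromosome 16 at -0.11. Against S2-020 it was lowest again, at -0.58 over 505 genes, followed by chromosome 16 at -0.19. In S2-020 against S2-007 it stood at 0.07, 20th from the lowest. Over protein-coding genes only, a choice made after seeing the data, the chromosome 13 medians were -0.53 and -0.83 for S2-028 against S2-007 and S2-020, again the lowest, and 0.22 for S2-020 against S2-007, the highest, with chromosome 19 close to it at 0.17.

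**Figure D3:**
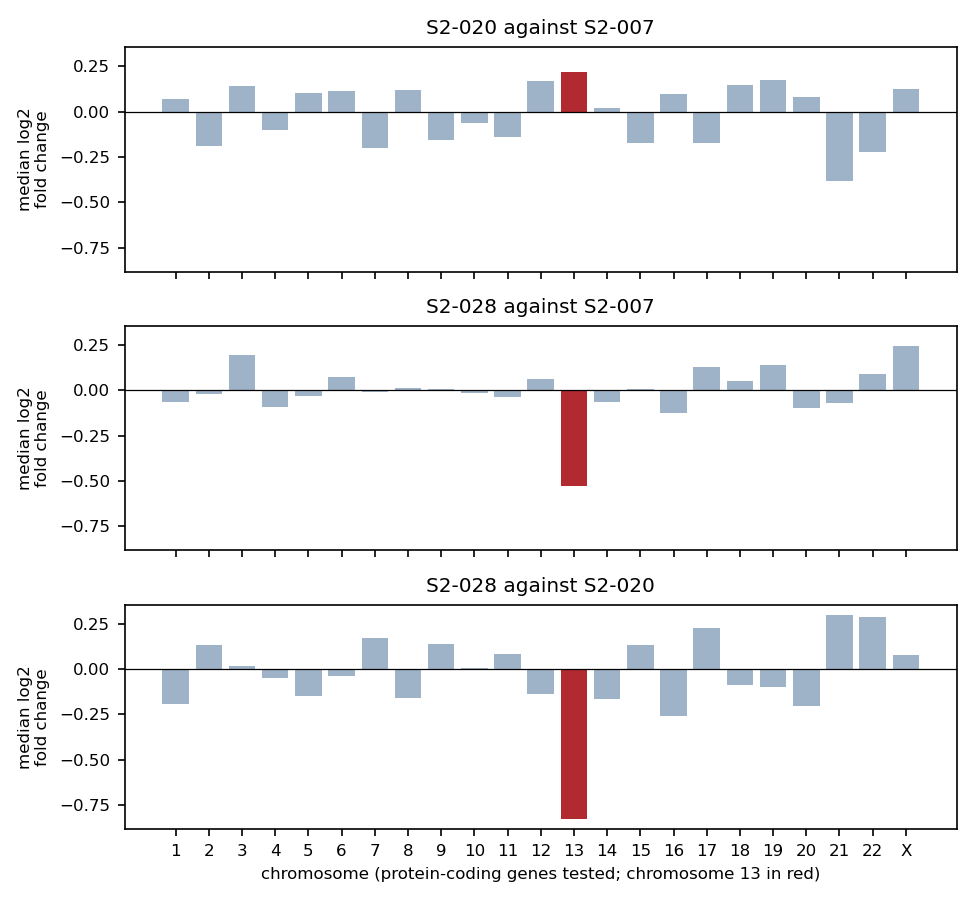
Median log2 fold change of the protein-coding genes tested on each chromosome (bars), in the 3 comparisons, with chromosome 13 in red. Chromosome 13 is at -0.53 in S2-028 against S2-007 and at -0.83 against S2-020, below every other chromosome.

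Along the arm, medians were taken in windows of 10 Mb. Over all genes tested in S2-028 against S2-007, the median was -0.38 from 20 to 30 Mb, -0.26 from 30 to 40 Mb, -0.29 from 40 to 50 Mb, where RB1 lies, -0.33 from 50 to 60 Mb and -0.60 from 70 to 80 Mb. The 3 windows from 90 Mb to the end of the arm were at -0.35, -0.49 and -0.60. Over protein-coding genes only, the windows from 20 to 60 Mb lay between -0.52 and -0.34, that from 70 to 80 Mb at -0.82, and the last 3 at -0.82, -0.80 and -0.75. The window from 90 to 100 Mb was therefore among the lowest over protein-coding genes and not over all genes. Against S2-020 the last 3 windows were at -0.35, -0.91 and -0.87 over all genes and at -1.03, -1.47 and -1.21 over protein-coding ones, beside -0.62 and -0.77 from 20 to 30 Mb. The windows below 20 Mb, from 60 to 70 Mb and from 80 to 90 Mb held under 20 genes each and are not read. That from 10 to 20 Mb held 4 of the 59 genes. Its median over all genes was -0.47 for S2-028 against S2-007 and -0.24 against S2-020. Of the 59 genes, 23 lie between 20 and 30 Mb and 10 beyond 70 Mb.

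**Figure D4:**
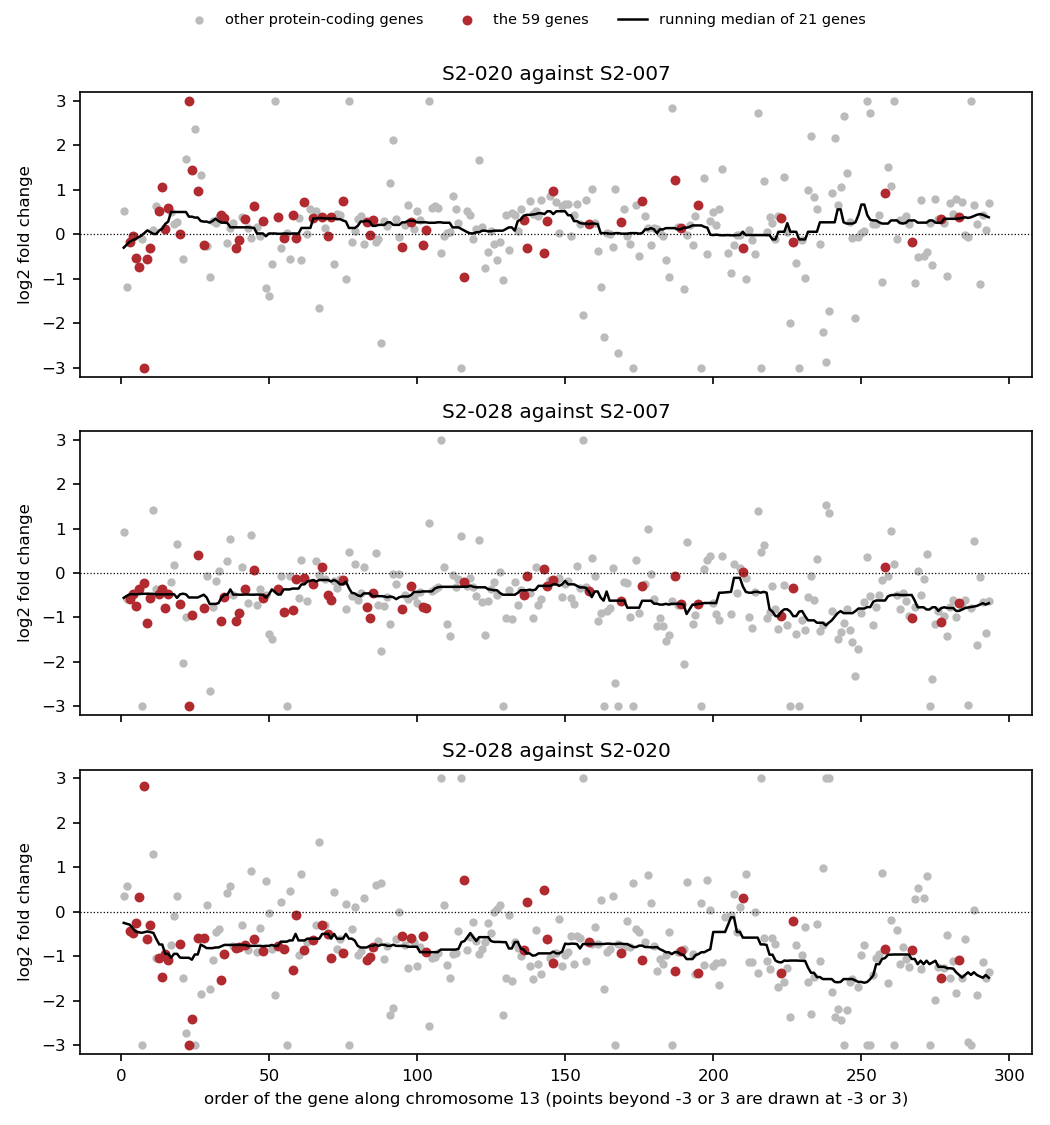
Log2 fold change of the 59 genes (red) and of the other protein-coding genes tested (grey) against their order along chromosome 13, with a running median of 21 genes (line), in the 3 comparisons. The running median stays below 0 over the whole arm in both comparisons of S2-028 and lies on both sides of 0 in S2-020 against S2-007.

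SLC15A1, ATP7B and LRCH1 had the greatest called differences in S2-028 against S2-007 among the other chromosome 13 genes whose mean log2 CPM reached 3 and whose libraries did not overlap between lines. SLC15A1, a peptide transporter, changed from 198 ± 20.6 CPM in S2-007 to 9.82 ± 0.709 in S2-028 (SD, n = 3 libraries per line), a log2 fold change of -4.33 ± 0.0830 (SE) with adjusted p = 2.13e-19 in edgeR's QL F-test. ATP7B, a copper-exporting ATPase, was at 41.4 ± 2.82 CPM in S2-007 and 2.55 ± 0.487 in S2-028. LRCH1 had a log2 fold change of -3.30 in the same comparison. In S2-028 against S2-020 POGLUT2 at -3.81 and DCLK1 at -3.27 were named by the same rule. In S2-020 against S2-007 the genes named were GAS6 at 4.18, DCLK1 at 3.72 and ABCC4 at 2.74. GAS6, the ligand of the AXL receptor, changed from 2.42 ± 0.204 CPM in S2-007 to 44.8 ± 2.36 in S2-020 (SD, n = 3 libraries per line), a log2 fold change of 4.18 ± 0.0966 (SE) with adjusted p = 1.29e-17 in edgeR's QL F-test.

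The RB pathway was also measured on the other chromosomes. The list held 32 genes of the RB pathway, the other pocket proteins, E2F factors, cyclins, cyclin-dependent kinases, their inhibitors and the DREAM complex. In S2-028 against S2-007, 4 of 32 were called higher (12.5%, beside 10.2% of all genes) and 2 lower (6.25%, beside 8.19%), shares near those of all genes. CDK4, a kinase that phosphorylates the RB protein, changed from 112 ± 7.18 CPM in S2-007 to 412 ± 30.7 in S2-028 (SD, n = 3 libraries per line), a log2 fold change of 1.89 ± 0.0676 (SE) with adjusted p = 3.25e-15 in edgeR's QL F-test. CDK6 was called higher at 1.48 ± 0.0693 (SE), and CDKN2C, an inhibitor of both kinases, was called lower at -1.88 ± 0.0985 (SE). In S2-020 against S2-007, 12 of 32 were called higher (37.5%, beside 9.57%) and 3 lower (9.38%, beside 12.1%). Under the 1.5-fold null 7 were called higher and 1 lower, without a count of the share it called over all genes. The genes called without that null included CDK4 at 1.83, CCND3 at 1.52 and CDKN1A, which encodes p21, at -2.90. In S2-028 against S2-020, 3 of 31 were called higher (9.68%, beside 12.1%) and 7 lower (22.6%, beside 10.1%), with CDKN2C at -2.62, CDK6 at 1.36 and MYBL2 at -1.02.

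Of 24 genes of homologous recombination, the process BRCA2 serves, 2 were called higher (8.33%, beside 10.2% of all genes) and none lower in S2-028 against S2-007, FANCD2 at 0.64 ± 0.0720 (SE) and RBBP8 at 0.60 ± 0.0712 (SE). The count called higher was 1 with DESeq2 and 0 under the 1.5-fold null. Leaving out replicate 2 of S2-007 raised it to 4, and leaving out either replicate 1 of that line or replicate 3 of S2-028 lowered it to 1. At an unadjusted p under 0.05, 10 of the 24 were higher and 2 lower, and DESeq2 called none lower. Shares over all genes at an unadjusted p, by DESeq2, under the 1.5-fold null or with a library left out were not counted. Nothing is read from such counts in any comparison. In S2-028 against S2-020, BRCA1 at 0.84 and BLM at 0.67 were called higher (8.33%, beside 12.1%) and none lower, with 2 called higher and none lower by DESeq2. There, 8 were higher and 10 lower at an unadjusted p under 0.05, 1 was called under the 1.5-fold null, and 3 were called higher and 1 lower without replicate 1 of S2-028. In S2-020 against S2-007 none was called by edgeR or DESeq2, although 13 were higher and 4 lower at an unadjusted p under 0.05. There, 1 was called higher without replicate 3 of S2-007 or without replicate 1 of S2-020.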

How the data were processed

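RNA of 9 libraries, 3 per line, was enriched for poly(A) and made into strand-specific libraries. The authors trimmed reads with Trimmomatic 0.39, aligned them to GRCh38.p14 with BWA 0.7.17, an aligner that does not split reads at introns, and deposited raw counts per gene. SAMtools 1.12 and edgeR 3.16.5 are named in the submitters' processing notes. The counting tool and its strand setting are not given in the sources used here, so genes that overlap or share sequence may exchange reads. The authors also deposited signal columns, 18 in all, that hold counts scaled by total or by TMM factors; these were not used. The study's comparison columns hold its fold changes and p-values and were not used. The 2 lines of the table that name no gene hold a total and a ratio and were left out.

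The counts were fitted with edgeR 4.0.16 in R 4.3.3 for each pair of lines (6 libraries), with TMM factors, filterByExpr (minimum count 10, minimum total 15), the quasi-likelihood F-test and Benjamini-Hochberg adjustment over all genes tested. The study names a likelihood ratio test, which was run as an alternative. Standard errors are the log2 fold change divided by the root of the F statistic. CPM used TMM factors from all 9 libraries. Total counts differed between libraries but were deep enough that 57 of the 59 genes had at least 100 counts throughout. Gene positions came from the RefSeq table on GRCh38.p14, which held 99.6% of the gene identifiers, and exon lengths and overlaps from GENCODE on GRCh38. On simulated counts with known changes, genes with a mean count of at least 100 and a true log2 change of 1 were recovered at 93.8% for S2-020 against S2-007, 96.7% for S2-028 against S2-007 and 96% for S2-028 against S2-020. Over genes of any count with that change, the recovery was 56.9%, 57.8% and 56.1%, so shares over all genes include many with less power. The simulation changed far fewer genes than were called in the data. In S2-020 against S2-007, 109 were changed by a log2 of 1 and 91 by a log2 of 2. Adjusted p-values depend on how many genes change, so these recoveries need not hold for the reported calls.

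The 59 genes, the gene lists and the tests were chosen with earlier results of these data known. The genes named by role were RB1, TFDP1, BRCA2, LATS2, CDK8, FOXO1, HMGB1, POMP, IRS2 and GJB2, joined in each comparison by the 4 genes with the highest and the 4 with the lowest log2 fold change. Of the other chromosome 13 genes the 3 called genes with the largest change were named, if their mean log2 CPM reached 3 and their libraries did not overlap, and of each gene list at most 3 called genes by adjusted p. A gene that this rule names is not reported here. Genes named beyond these were chosen after their values were seen. Alternatives were DESeq2 1.42.0, the likelihood ratio test, RLE factors, library size only, no filter, 10 counts in every library, all 9 libraries in one fit, a replicate block, a 1.5-fold null (glmTreat) and leaving out each library.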

Additional observations from a re-analysis of the deposited data

How the results depend on the processing

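Of the comparisons of all genes and lists, 237 values stayed near the reported value, 35 moved and 1 reversed. A count was near if its total, both directions together, was within 1.5-fold of the reported total, so direction was not compared for counts. Of the single genes, 885 kept direction and call, 8 lost a call, 4 gained one and 1 reversed. The likelihood ratio test and the 1.5-fold null gave almost the same log2 fold changes as reported, so there only calls could change. With 3 libraries per line the spread is known poorly, and LPAR6, with 38 to 72 counts per library, is limited by depth. The cause was not tested for any of these changes. For the alternative fits, shares called over all genes were not counted, and nothing is read from their counts of called genes. In S2-020 against S2-007, the 59 genes had a median of 0.32 on the log2 scale with DESeq2, 0.32 with RLE factors, 0.23 with library size only and 0.32 with all 9 libraries in one fit, and 0.26 to 0.31 without 1 library. The chromosome 13 median was 0.10 with DESeq2, 0.10 with RLE factors, 0.01 with library size only, 0.0899 with all 9 libraries, 0.22 over protein-coding genes (added after seeing the data), and -0.0238, with its sign reversed, without a filter. Without 1 library it lay between 0.0529 and 0.0966. A 1.5-fold null left 67 other chromosome 13 genes and 8 RB pathway genes called, and leaving out 1 library gave 0 to 1 called homologous recombination genes. In S2-028 against S2-007, a 1.5-fold null left 15 of the 59 genes called, all lower, without a count of the share it called over all genes. It left no homologous recombination gene called (0). DESeq2 and RLE factors each called 1 such gene, and 1 to 4 were called without 1 library. The chromosome 13 median was -0.53 over protein-coding genes and -0.41 to -0.33 without 1 library. TBC1D4 lay between -0.164 and 0.0335 without 1 library, the latter, reversed, without S2-028 replicate 2. In S2-028 against S2-020, library size only gave a median of -0.73 for the 59 genes and of -0.49 for chromosome 13, and 5 homologous recombination genes. Without a filter the chromosome 13 median was -0.42, over protein-coding genes -0.83, and without 1 library -0.59 to -0.49. A 1.5-fold null called 1 homologous recombination gene, and 2 to 4 were called without 1 library. Same-numbered libraries did not deviate together over all genes (correlations of -0.0219 to 0.014), so no pairing by number was detected. A pairing that touches few genes would not show in these correlations. A replicate block called 15 of the 59 genes in S2-020 against S2-007, 25 in S2-028 against S2-007 and 45 in S2-028 against S2-020, beside 15, 25 and 44 without the block. Leaving out the 9 genes that share sequence or exons with other genes (also added later) left 50 genes in the reported fit. In S2-020 against S2-007, 10 of the 50 were called higher (beside 9.57% of all genes) and 3 lower (beside 12.1%). In S2-028 against S2-007, 20 were called lower (beside 8.19%). In S2-028 against S2-020, 36 were called lower (beside 10.1%) and 2 higher (beside 12.1%).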
